A study of Mus musculus with 39 samples.

Results

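The D-type cyclins Ccnd1, Ccnd2 and Ccnd3, their catalytic partners Cdk4 and Cdk6, and the transcription factor Myc were followed through myogenic differentiation of C2C12 cells with and without a knockout of Flnc, the gene of the actin cross-linker filamin C. The 6 genes were chosen by name, with earlier results of these data known, and each matched 1 of the 29980 genes in the count table. All 6 passed the filter on low counts and were among the 13780 genes tested. C2C12 is an established line of mouse myoblasts that leave the cell cycle and fuse into myotubes when serum is lowered.

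The wild-type cells (WT) were unedited C2C12. The knockout cells (KO) were C2C12 edited by CRISPR/Cas9 with a guide RNA to the first exon of Flnc. Day 0 libraries of both lines came from growing cells in medium with 10% fetal bovine serum. Libraries of days 1, 2, 4 and 6 came from cells kept in 2% horse serum, with fresh medium every day. Each line and day had 4 libraries, except KO day 2 with 3, which gave 39 in all. Whether the knockout cells are 1 clone, and whether libraries of a group came from separate cultures, is not given in the sources used here. The p-values therefore measure only the spread between libraries, which may be technical, and an effect of the knockout cannot be told apart from a difference between the edited cells and their parent line that has another origin.

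D-type cyclins are made in response to growth factors and bind Cdk4 or Cdk6. The active complexes phosphorylate the retinoblastoma protein and its relatives, which releases E2F factors and opens the way to DNA replication. Ccnd1 is known as the cyclin of growing myoblasts, while Ccnd3 is known to be induced as myoblasts differentiate, when it is held in inactive complexes with the retinoblastoma protein, Cdk4 and the inhibitor p21. Myc, a factor that drives ribosome production and growth, is induced by serum in the same phase of the cycle as the cyclins.

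Library totals ranged from 6838281 to 28902526 counts and were lower on later days in both lines. Levels are given as CPM, read counts scaled to a common library total, and levels of different genes are compared only as CPM per kilobase of merged exons. Flnc, the edited gene, had 419 to 2207 CPM in the WT libraries and 16.0 to 159 CPM in the KO libraries, without overlap. Muscle markers (10 of 10 detected) summed to 1502 to 22530 CPM in WT and 1454 to 9621 CPM in KO. The sum over 6 fibroblast markers was 100.0 to 551 CPM in WT and 91.9 to 639 CPM in KO, and at day 0 in KO it was 254 to 639 CPM beside muscle sums of 1454 to 2959 CPM. Of the 6, 4 were tested, and at day 6 all 4 were called between the lines, where 28.9% of all genes were called. Pdgfrb (69.9 against 5.25 CPM) and Pdgfra (19.8 against 5.90 CPM) were higher in KO, and Dcn (19.2 against 361 CPM) and Col1a1 (0.436 against 2.87 CPM) were lower. Thy1 was at 0 in every library. The part of these genes in the results was not tested. Sums for adipocyte, osteoblast, and endothelial and blood markers were each at most 61.9 CPM in any library, with Lep and Ibsp at 0 throughout. By mean correlation with the other libraries of its group, KO day 1 replicate 3 stood furthest apart (0.929). The next lowest were KO day 1 replicate 1 and KO day 4 replicate 3 (0.954 each), WT day 0 replicate 4 (0.955) and WT day 2 replicate 4 (0.957). In WT day 2 replicate 4 the endoplasmic reticulum chaperone Hspa5 reached 11527 CPM, against 333 to 1366 CPM in the other 38 libraries, and the stress factors Ddit3 and Trib3 reached 285 and 357 CPM, against 23.4 to 67.6 and 10.9 to 71.6 CPM in the other WT day 2 libraries. These 3 genes were chosen after their values were seen. Day 2 values of the 6 genes are given below with and without this library where it changed a call or moved a value by over 1.5 times.

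Calls were made with edgeR's quasi-likelihood F-test at a Benjamini-Hochberg adjusted p under 0.05 over all 13780 genes. Between the lines, 2 of the 6 genes were called at day 0, where 15.5% of all genes were called. The counts were 4 at day 1 (18.0% of all genes), 3 at day 2 (17.9%), 5 at day 4 (27.5%) and 4 at day 6 (28.9%). All of these calls were lower in KO except those of Cdk4 at days 4 and 6. Against day 0 in WT, the counts were 0 at day 1 (4.19% of all genes), 3 at day 2 (25.6%), 4 at day 4 (43.7%) and 5 at day 6 (49.4%). Against day 0 in KO, they were 1 at day 1 (7.99%), 1 at day 2 (26.6%), 4 at day 4 (37.5%) and 5 at day 6 (43.6%). At WT day 1 DESeq2 also called 0, and 2 of the 6 stood below 0.05 before adjustment. Where more than 4 in 10 genes of the table were called, a count of 4 or 5 of 6 says little about these genes in particular.

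Whether the change from day 0 differed between the lines was tested with the genotype by day term. It called 0 of the 6 at day 1 (0.00% of all genes), 0 at day 2 (0.544%), 1 at day 4 (7.66%) and 1 at day 6 (9.95%), the gene being Ccnd3 both times. Over all later days together it called 0 of the 6 (7.74% of all genes). DESeq2 called 0, 0, 1 and 2 of the 6 on the 4 days and 1 over all days. At an unadjusted p under 0.05 the edgeR counts were 0, 1, 3 and 3 on the 4 days and 3 over all days. For the other 5 genes, the change from day 0 was therefore not shown by this test to differ between the lines.

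**Figure D1:**
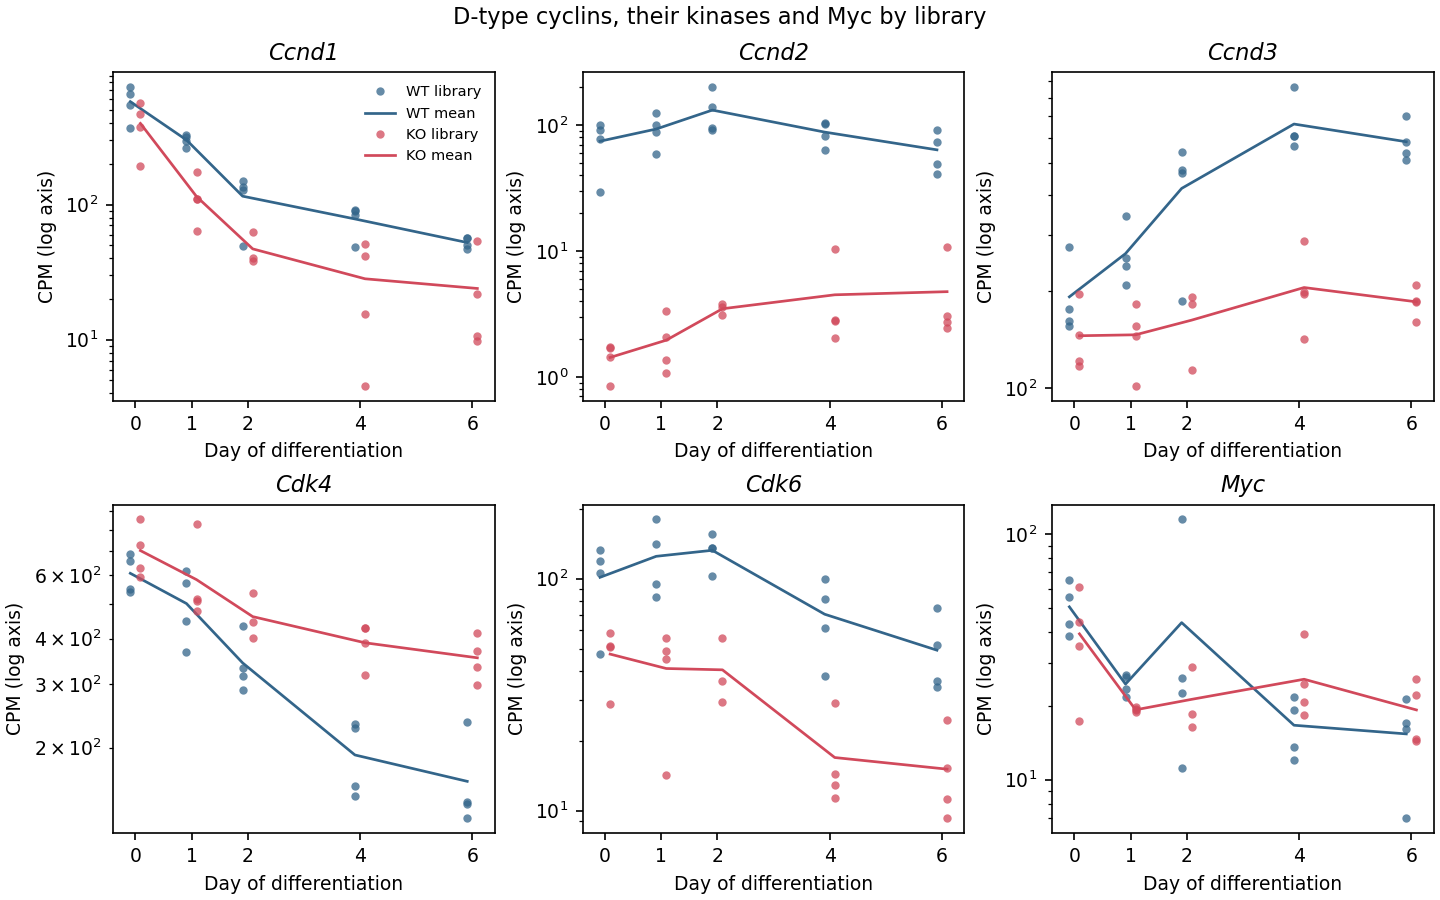
Levels of the 6 genes in CPM (vertical axes, logarithmic, a separate scale in each panel) by day of differentiation (horizontal axes). Each point is a library and each line joins group means, WT in blue and KO in red. Ccnd1 fell in both lines, Ccnd3 was called higher than day 0 in WT from day 2 and on no day in KO, and every KO library of Ccnd2 lay below every WT library.

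Ccnd1, the cyclin of serum-driven proliferation, was the most abundant D-type cyclin of growing cells and fell in both lines after serum was lowered. The gene lies at chr7:144929931-144939925 on the minus strand (GRCm38). In WT, replicates 3, 1, 4 and 5 had 656, 549, 366 and 738 CPM at day 0, then 326, 295, 317 and 263 CPM at day 1. They had 149, 129, 49.0 and 134 CPM at day 2 and 90.9, 83.9, 48.7 and 89.3 CPM at day 4. At day 6 they held 56.1, 56.6, 49.9 and 46.7 CPM. The WT libraries of day 6 were close together, and all lay below those of days 0 and 1. In KO, the same replicates had 466, 192, 376 and 559 CPM at day 0, then 109, 110, 175 and 63.9 CPM at day 1. KO day 2 replicates 3, 1 and 5 had 62.7, 40.0 and 38.2 CPM. Day 4 gave 41.9, 51.0, 15.4 and 4.57 CPM and day 6 gave 10.7, 53.5, 21.8 and 9.72 CPM for KO replicates 3, 1, 4 and 5. The spread between KO libraries was wide on these last days, and replicate 1 was the highest on both.

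Ccnd1 in WT fell, with log2 differences from day 0 of -2.35 ± 0.41 (SE) at day 2 (adjusted p = 0.000505), -2.85 ± 0.30 at day 4 (1.75e-05) and -3.45 ± 0.21 at day 6 (1.04e-06). The day 1 difference of -0.99 ± 0.21 did not pass (0.249). In KO it fell with differences of -1.80 ± 0.46 at day 1 (0.0175), -3.12 ± 0.41 at day 2 (0.000115), -3.85 ± 0.86 at day 4 (5.18e-07) and -4.11 ± 0.65 at day 6 (1.67e-07). The KO day 1 call was lost when KO day 0 replicate 3 or 5 or KO day 1 replicate 1 or 5 was left out, with an adjusted p of 0.0567 to 0.0891.

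Between the lines, Ccnd1 was lower in KO at day 1 (difference -1.37 ± 0.31, adjusted p = 0.0393), where no KO library reached the lowest WT library, and at day 4 (-1.57 ± 0.82, 0.013). At day 1 the KO mean of 114 ± 45.6 CPM (SD, n = 4) was 38.1% of the WT mean. The differences of -0.57 ± 0.40 at day 0 (0.435), -1.34 ± 0.43 at day 2 (0.0713) and -1.23 ± 0.55 at day 6 (0.0516) did not pass. These calls sat close to the threshold. The day 1 call was lost without any one of the 4 WT libraries or of KO replicates 1, 3 and 5 (0.0536 to 0.128), with no filter on low counts (0.0653) and without both KO day 1 replicate 3 and WT day 0 replicate 4 (0.074). The day 4 call was lost without KO day 4 replicate 4 (0.0518) and when only the groups compared were fitted (0.0724). The day 2 difference passed without WT day 2 replicate 4 (-1.59, 0.0373), with the replicate number as a block (-1.40, 0.045), by DESeq2 (0.0388) and with only the groups compared (0.0274). The day 6 difference passed without KO day 6 replicate 1 (-1.98, 0.00278) and under 7 of the other settings (-1.53 to -1.24, 0.00911 to 0.0482), DESeq2 among them (0.0256). Without that library the KO fall to day 6 was -4.87.

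Ccnd3, the cyclin associated with differentiation, rose in WT, while no day in KO differed from day 0 by the test. It lies at chr17:47505051-47599691 on the plus strand. WT replicates 3, 1, 4 and 5 had 162, 156, 275 and 177 CPM at day 0 and 210.0, 240.0, 255 and 344 CPM at day 1. They had 465, 478, 187 and 542 CPM at day 2. Day 4 gave 862, 609, 610.0 and 568 CPM and day 6 gave 583, 512, 537 and 702 CPM. From day 4 on, every WT library was at or above 512 CPM. The low WT day 2 value belongs to replicate 4, the library with the high Hspa5 level. KO replicates 3, 1, 4 and 5 had 147, 122, 197 and 117 CPM at day 0, and 183, 156, 146 and 102 CPM at day 1. KO day 2 replicates 3, 1 and 5 had 192, 183 and 114 CPM. KO day 4 gave 286, 142, 196 and 199 CPM, and KO day 6 gave 185, 187, 161 and 210.0 CPM. At days 4 and 6 the highest KO library lay below the lowest WT library.

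In WT, Ccnd3 rose by 1.07 ± 0.41 on the log2 scale to day 2 (adjusted p = 0.00462), 1.79 ± 0.28 to day 4 (4.73e-06) and 1.59 ± 0.26 to day 6 (1.97e-05), with 0.38 ± 0.28 at day 1 (0.523). In KO the differences from day 0 were 0.02 ± 0.29, 0.12 ± 0.30, 0.47 ± 0.30 and 0.32 ± 0.21 at days 1, 2, 4 and 6, and none passed (0.18 to 0.985). The level in KO was not distinguishable at day 0 (-0.45 ± 0.30, adjusted p = 0.277) and lower from then on, with differences of -0.81 ± 0.27 at day 1 (0.0395), -1.40 ± 0.41 at day 2 (0.0014), -1.77 ± 0.27 at day 4 (1.35e-05) and -1.73 ± 0.15 at day 6 (1.63e-05). At day 6 the mean was 584 ± 84.4 CPM in WT and 186 ± 20.1 CPM in KO (SD, n = 4 each), so KO held 31.8% of the WT level. Without any one of WT day 1 replicates 1, 4 and 5 or KO day 1 replicates 1, 4 and 5 the day 1 call was lost (0.0542 to 0.15), as it was with no filter (0.0524) and with only the groups compared (-0.77, 0.108). Without WT day 2 replicate 4, both day 2 calls of Ccnd3 were kept, with larger differences.

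The change of Ccnd3 from day 0 was smaller in KO, with a genotype by day difference of -1.31 ± 0.40 on the log2 scale at day 4 (adjusted p = 0.0343) and -1.28 ± 0.33 at day 6 (0.0332). Both calls were near the threshold. With only the groups compared, the day 4 term had an adjusted p of 0.0555. The day 4 call was also lost without any one of WT day 0 replicates 1, 3 and 5, WT day 4 replicate 3, KO day 0 replicates 3 and 4, or KO day 4 replicates 1, 4 and 5 (differences of -1.31 to -1.12, adjusted p 0.055 to 0.0853). The day 6 call was lost without any one of WT day 0 replicates 1, 3 and 5, WT day 6 replicate 5, KO day 0 replicate 4, or KO day 6 replicates 1 and 4 (-1.28 to -1.09, 0.0559 to 0.0814). Muscle markers also differed between the lines. Their sum was 16598 to 20424 CPM in the WT libraries of day 4 and 4730 to 9621 CPM in KO. On that day 5 of the 10 were called lower and 1 higher in KO, beside 27.5% of all genes called. At day 0, 4 were called lower and 0 higher (median -1.44), beside 15.5% of all genes. By the genotype by day term, 1 marker was called higher and 1 lower at day 4 (median -0.04, 7.66% of all genes called). The same counts held at day 6 (median -0.1, 9.95%). Their part in the Ccnd3 result was not tested. In bulk RNA, fewer differentiated cells and less Ccnd3 mRNA per cell cannot be told apart.

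By merged exon length, Ccnd3 passed Ccnd1 between days 1 and 2 in both lines, in KO without a called change in Ccnd3. This was followed as the log2 ratio of Ccnd3 to Ccnd1, each as CPM per kilobase, and is a description without a test. In WT the ratio was -2.47 ± 0.78 (SD, n = 4) at day 0 and -1.11 ± 0.43 at day 1. It was 0.97 ± 0.16 at day 2, 2.21 ± 0.43 at day 4 and 2.58 ± 0.31 at day 6. In KO it was -2.27 ± 0.73 at day 0, -0.48 ± 0.46 at day 1 and 0.90 ± 0.35 (n = 3) at day 2. KO days 4 and 6 gave 2.44 ± 1.67 and 2.41 ± 1.20. Every library of days 0 and 1 lay below 0 in both lines, and every library from day 2 on lay above 0, so the crossing fell between days 1 and 2. WT day 2 replicate 4, low in both cyclins, had a ratio of 1.04, within the 0.75 to 1.11 of its group. With the length of the longest transcript in place of merged exons, the KO mean at day 1 was 0.37, so the day of the crossing in KO depends on the length used.

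The genes contributed unequally to the rise. From day 0 to day 6 it rose by 5.05 in WT. Split by the mean log2 CPM of each gene over the libraries, 3.42 of this came from the fall of Ccnd1 and 1.63 from the rise of Ccnd3. In KO it rose by 4.68, of which 4.31 came from Ccnd1 and 0.37 from Ccnd3, whose change in KO did not pass the test. KO libraries differed most at the end: the day 4 ratio was 0.58 in replicate 1 and 4.55 in replicate 5, the day 6 ratio 0.91 in replicate 1 and 3.53 in replicate 5. In these libraries the denominator Ccnd1 was at 51.0 and 4.57 CPM, then 53.5 and 9.72 CPM.

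**Figure D2:**
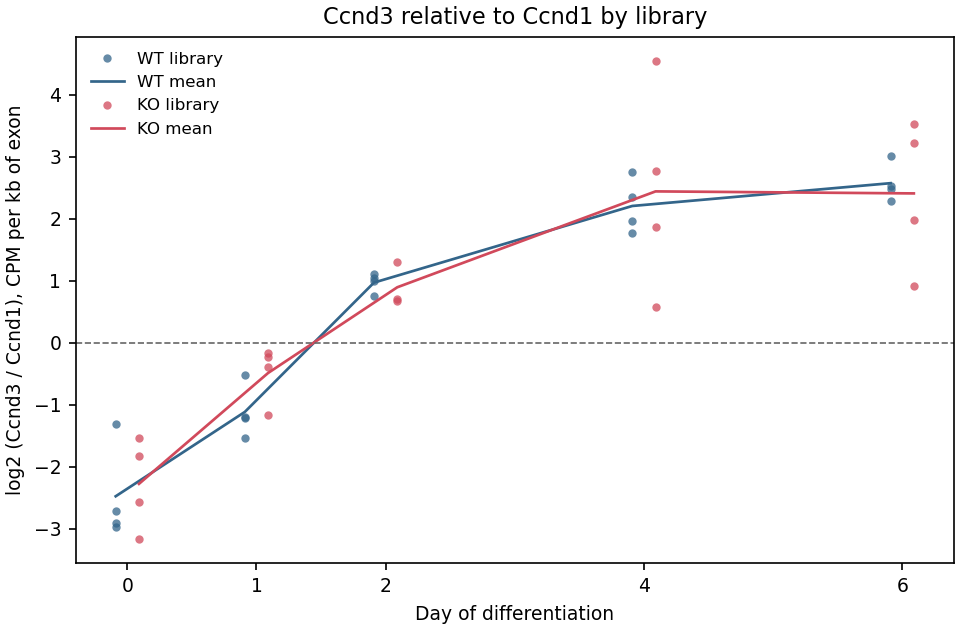
Log2 ratio of Ccnd3 to Ccnd1 (vertical axis, each gene as CPM per kilobase of merged exons) by day of differentiation (horizontal axis). Points are libraries and lines join group means, WT in blue and KO in red, with a dashed line at equal levels. With this length both lines cross it between days 1 and 2, and the KO libraries spread from 0.58 to 4.55 at day 4.

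Ccnd2, the third D-type cyclin, was present in WT throughout and at most at 10.8 CPM in KO, including in growing cells. It lies at chr6:127125162-127152193 on the minus strand. WT replicates 3, 1, 4 and 5 had 92.2, 77.4, 29.5 and 99.8 CPM at day 0, and 91.5, 73.6, 49.1 and 41.0 CPM at day 6. Between these days the WT libraries ranged from 59.1 to 201 CPM, the highest being WT day 2 replicate 4. KO replicates 3, 1, 4 and 5 had 1.70, 0.85, 1.43 and 1.72 CPM at day 0 and 1.08, 2.07, 1.35 and 3.32 CPM at day 1. KO day 2 replicates 3, 1 and 5 had 3.09, 3.57 and 3.77 CPM. KO day 4 gave 2.02, 10.3, 2.80 and 2.83 CPM and KO day 6 gave 2.73, 10.8, 3.03 and 2.45 CPM. No KO library reached the lowest WT library on any day. The KO values rested on 14 to 132 counts per library, so their counting error is larger than that of most values of the other 5 genes. A few libraries were as low for other genes, down to 78 counts of Ccnd1 and 82 of Cdk6 at KO day 6. Myc went down to 62 counts at WT day 6.

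The difference between the lines was -5.73 ± 0.44 on the log2 scale at day 0 (adjusted p = 1.13e-09), when KO held 1.91% of the WT mean. It was -5.55 ± 0.39 at day 1 (1.62e-09), -5.30 ± 0.29 at day 2 (2.65e-08), -4.41 ± 0.52 at day 4 (1.61e-08) and -3.87 ± 0.54 at day 6 (1.33e-07). These 5 calls were kept under each alternative that was run. Without KO replicate 1 the differences at days 4 and 6 were -5.19 and -4.62. In WT no day differed from day 0 by the test (0.145 to 0.777). In KO, Ccnd2 rose from its low level by 1.61 ± 0.54 to day 4 (0.00696) and 1.65 ± 0.53 to day 6 (0.00562). Both calls rested on replicate 1: without it the differences were 0.82 (0.166) at day 4 and 0.90 (0.119) at day 6. At KO day 2 the difference of 1.25 ± 0.24 did not pass (0.0562). It passed by DESeq2 (0.0359), with only the groups compared (0.0399) and without both KO day 1 replicate 3 and WT day 0 replicate 4 (0.0369). Flnc stood at 119 and 116 CPM in replicate 1 of KO days 4 and 6, within the 98.5 to 159 CPM of the other KO libraries of those days. Whether the rise differed from WT did not pass at day 6 (1.86 ± 0.70, adjusted p = 0.0541). It passed without WT day 0 replicate 4, WT day 6 replicate 3 or KO day 6 replicate 3, 4 or 5 (2.03 to 2.09, 0.0227 to 0.0499), with the replicate block (1.72, 0.0469) and by DESeq2 (1.82, 0.0308). Without KO day 6 replicate 1 it was 1.11 (0.269).

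Of the 8 tested genes within 1 Mb of Ccnd2, 3 were called lower and 0 higher in KO at day 0, and the same counts held at day 6. Over all genes, 15.5% were called at day 0 and 28.9% at day 6. The nearest, Tigar, lies 15.6 kb away and differed by -0.63 at day 0 (adjusted p = 0.0459) and -0.68 at day 6 (0.0203). Tspan9, 809.2 kb away, differed by -1.30 (0.000177) and -1.32 (6.08e-05). Tspan11, 735.4 kb away, differed by -7.2 (0.00145) and -6.04 (0.0221). These genes were named after their values were seen. The 5 other tested genes were called on neither day. The same windows of other members also held called genes. At day 6, 0 were higher and 3 lower of 9 near Ccnd1, and 6 higher and 2 lower of 35 near Ccnd3. Near Cdk4 7 were higher and 0 lower of 38, near Cdk6 0 higher and 1 lower of 13, and near Myc 0 of 2 were called. At day 0, 1 was higher and 3 lower near Ccnd1, 0 and 3 near Ccnd3, 3 and 2 near Cdk4, and 0 were called near Cdk6 and Myc.

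The pool of D-type cyclin mRNA, summed per length, was smaller in KO from day 1 on. In WT the sum was 153 ± 32.5 CPM per kilobase at day 0, 104 ± 3.38 at day 1, 86.2 ± 22.1 at day 2, 101 ± 17.3 at day 4 and 84.4 ± 8.27 at day 6. In KO it was 101 ± 33.4 at day 0, 41.2 ± 11.8 at day 1, 28.9 ± 7.03 at day 2, 29.9 ± 8.06 at day 4 and 26.7 ± 4.92 at day 6. The libraries of the lines overlapped at day 0. From day 1 on the highest KO library lay below the lowest WT library of its day, in this sum that was not tested. Ccnd1 made up 79.4% ± 6.80 of the WT sum and 81.9% ± 7.01 of the KO sum at day 0. Ccnd3 made up 78.6% ± 4.68 and 80.5% ± 12.9 at day 6. Ccnd2 held 5.01% ± 1.49 to 19.0% ± 14.4 of the WT sum across days, and 0.152% ± 0.0114 to 1.75% ± 1.11 of the KO sum. The 19.0% is from WT day 2, where Ccnd2 and Ccnd3 each held 40.2% in replicate 4. Without that library Ccnd2 held 11.9% ± 2.97 (n = 3) on that day, and the sum was 97.2 ± 2.64 CPM per kilobase.

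By level per length, the order in WT at day 0 was Ccnd1 (123 ± 34.1 CPM per kilobase), Ccnd3 (21.9 ± 6.33) and Ccnd2 (7.94 ± 3.36). At day 6 it was Ccnd3 (66.5 ± 9.62), Ccnd1 (11.1 ± 1.03) and Ccnd2 (6.78 ± 2.45). In KO at day 6, Ccnd3 (21.1 ± 2.29) stood above Ccnd1 (5.08 ± 4.35), which stood above Ccnd2 (0.506 ± 0.430). By merged exon length, each of these neighbours was separated without overlap between libraries. The gap was narrow at WT day 6, where the lowest Ccnd1 library was at 9.91 and the highest Ccnd2 library at 9.73 CPM per kilobase. The separation thus depends on the length used.

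**Figure D3:**
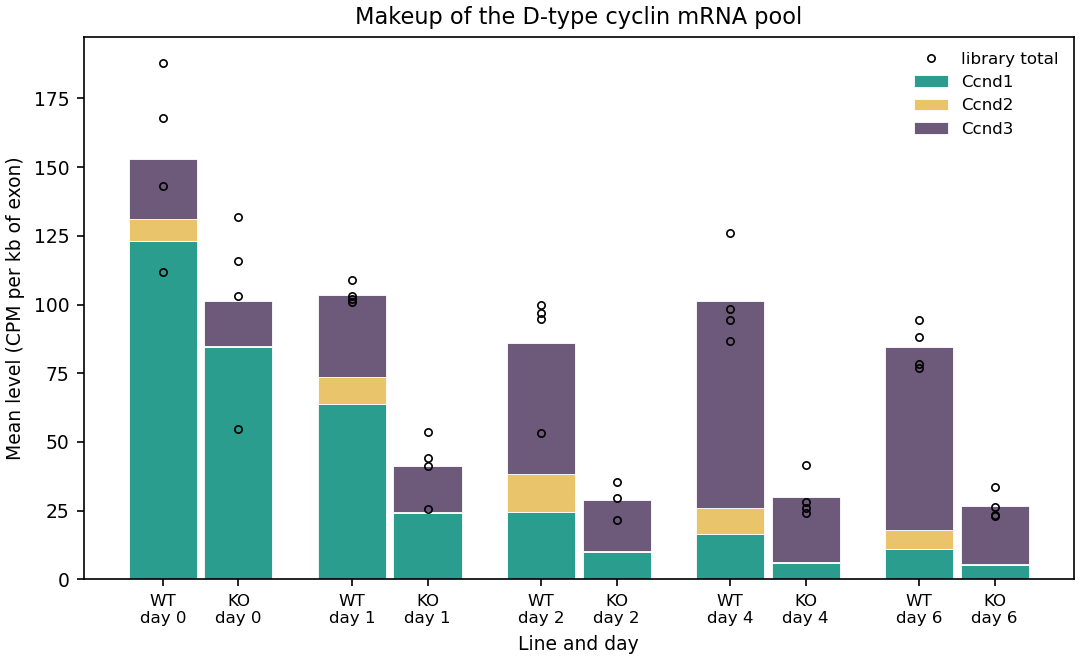
Mean level of the D-type cyclins in CPM per kilobase of merged exons (vertical axis, from 0), stacked for each line and day (horizontal axis); open circles are the sums of single libraries. The largest segment is Ccnd1 at day 0 and Ccnd3 at day 6 in both lines. The KO bars from day 1 on are lower, and the Ccnd2 segment is barely visible in KO.

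Cdk4, the kinase partner that is abundant in proliferating cells, fell in both lines and remained higher in KO at the end. It lies at chr10:127063534-127067920 on the plus strand. WT replicates 3, 1, 4 and 5 had 547, 537, 686 and 655 CPM at day 0, 233, 157, 227 and 147 CPM at day 4, and 140.0, 142, 236 and 128 CPM at day 6. KO replicates 3, 1, 4 and 5 had 854, 629, 593 and 726 CPM at day 0, 427, 317, 427 and 388 CPM at day 4, and 335, 298, 370.0 and 414 CPM at day 6. Every KO library of days 4 and 6 was above every WT library of its day. On days 1 and 2 the values ran from 289 to 614 CPM in WT and from 401 to 828 CPM in KO, with overlap.

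Cdk4 in WT fell, with log2 differences from day 0 of -0.85 ± 0.19 at day 2 (adjusted p = 0.00514), -1.65 ± 0.22 at day 4 (5.67e-07) and -1.92 ± 0.23 at day 6 (3.28e-08). In KO it fell with differences of -0.87 ± 0.17 at day 4 (0.00296) and -1.01 ± 0.17 at day 6 (0.000582). At KO day 2 the difference was -0.64 ± 0.17 (0.0516), which passed with the replicate block (-0.60, 0.0244) and without KO day 0 replicate 1 or 4 (0.0431 and 0.0465). It also passed by DESeq2 (-0.65, 0.0346), with halved counts (0.0482) and without both KO day 1 replicate 3 and WT day 0 replicate 4 (0.0267). The level was higher in KO by 0.94 ± 0.21 at day 4 (0.00184) and 1.07 ± 0.22 at day 6 (0.000499), when it was 219% of the WT mean. Differences of 0.16 ± 0.18, 0.26 ± 0.28 and 0.37 ± 0.18 at days 0, 1 and 2 did not pass (0.327 to 0.67). The smaller fall in KO did not pass as a difference between the lines at day 4 (0.78 ± 0.28, adjusted p = 0.143) or at day 6 (0.91 ± 0.28, 0.0661). It passed at day 6 without WT day 6 replicate 4 (1.13, 0.02).

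Cdk6, the second kinase partner, was lower in KO on every day. It lies at chr5:3341485-3531008 on the plus strand. WT replicates 3, 1, 4 and 5 had 119, 133, 47.3 and 106 CPM at day 0, and KO had 51.4, 28.8, 58.1 and 50.9 CPM. At day 4 WT had 38.1, 81.8, 61.4 and 99.8 CPM and KO 11.3, 29.2, 14.4 and 12.9 CPM. At day 6 WT had 74.9, 51.7, 36.1 and 34.0 CPM and KO 11.2, 24.6, 15.3 and 9.31 CPM. The lines overlapped at day 0 through WT replicate 4, and on no later day.

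The difference in Cdk6 between the lines was -1.11 ± 0.38 at day 0 (adjusted p = 0.034), -1.62 ± 0.49 at day 1 (0.00168), -1.76 ± 0.29 at day 2 (0.00219), -2.14 ± 0.41 at day 4 (4.5e-05) and -1.79 ± 0.39 at day 6 (0.000413). The day 0 call was lost without WT or KO day 0 replicate 1, 3 or 5 (-1.17 to -0.92, 0.0541 to 0.111). The calls of the 4 later days were kept under each alternative that was run. Over time, Cdk6 in KO fell, with differences of -1.52 ± 0.37 at day 4 (0.00153) and -1.70 ± 0.37 at day 6 (0.000461). In WT it fell at day 6 (-1.01 ± 0.39, 0.0206), a call lost without WT day 0 replicate 1 or WT day 6 replicate 4 or 5 (0.0533 to 0.0831). The 2 kinases thus differed between the lines in opposite directions at days 4 and 6. Per length, the Cdk4 level was 27.5-fold that of Cdk6 at WT day 0 and 14.4-fold at WT day 6, and 65.3-fold and 108-fold in KO. The range over libraries at day 6 was 8.02 to 28.2 in WT and 52.3 to 192 in KO. This ratio is a description and was not tested.

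**Figure D4:**
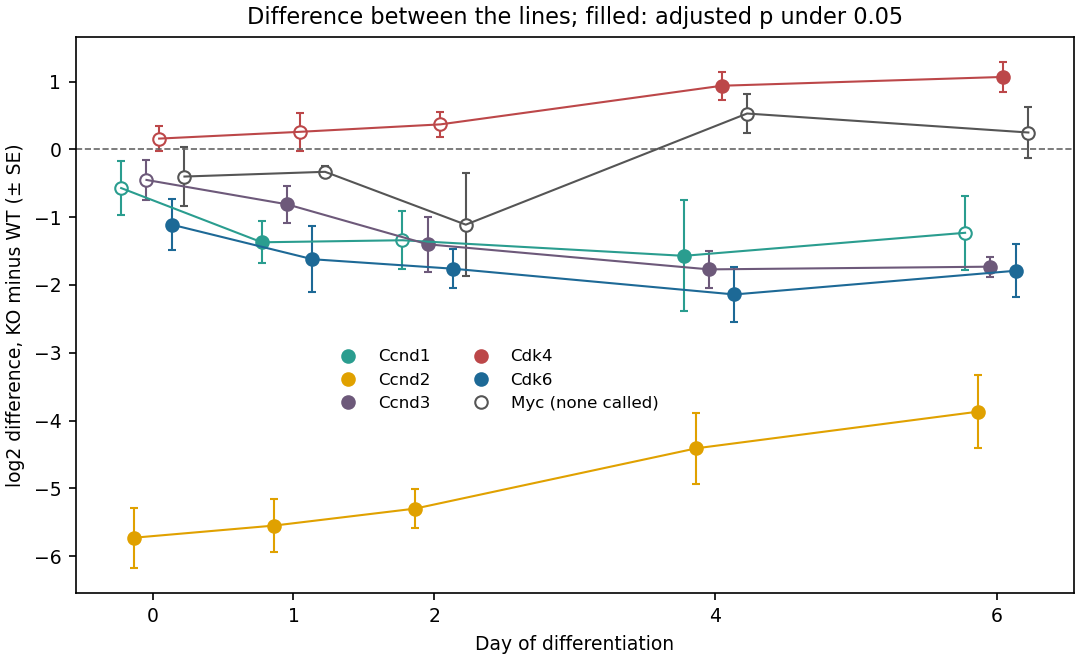
Log2 difference between KO and WT of each gene (vertical axis, bars show the SE) by day of differentiation (horizontal axis). Filled points were called by edgeR at an adjusted p under 0.05 and open points were not. Ccnd2 lies between -5.73 and -3.87, Cdk6 and Ccnd3 below 0, and Cdk4 above 0 with calls at days 4 and 6.

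Promoter sequence was at hand for Cdk4, Cdk6 and Ccnd3 (RefSeq, GRCm38.p6), as the 250 bases before each annotated start. The windows of the kinases are shown because CACGTG, the E-box letters that Myc and its partner Max are known to bind, occur in both. They were picked after the matches were seen, and other motifs were searched as well. Capitals mark each CACGTG, and both windows are on the plus strand, written 5′ to 3′.
Cdk4, chr10:127063285-127063534: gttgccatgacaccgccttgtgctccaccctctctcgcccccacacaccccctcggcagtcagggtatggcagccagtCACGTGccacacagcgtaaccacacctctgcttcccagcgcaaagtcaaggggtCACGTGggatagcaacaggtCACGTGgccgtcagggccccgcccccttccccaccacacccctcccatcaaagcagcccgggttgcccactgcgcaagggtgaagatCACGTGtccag
Cdk6, chr5:3343643-3343892: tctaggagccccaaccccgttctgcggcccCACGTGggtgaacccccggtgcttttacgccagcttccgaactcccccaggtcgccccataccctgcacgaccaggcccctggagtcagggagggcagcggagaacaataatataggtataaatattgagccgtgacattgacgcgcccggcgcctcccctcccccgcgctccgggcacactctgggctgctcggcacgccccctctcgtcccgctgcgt
The Cdk4 window held 4 copies, 172, 118, 98 and 11 bases before the start, and the Cdk6 window held 1 copy, 220 bases before it. At least 1 copy was found in 6.02% of 32851 promoter windows of the same length, and at least 4 copies in 7 windows (0.0213%). The motif is its own reverse complement, so both strands were read at once. The Ccnd3 windows, chr17:47504801-47505050 and chr17:47593217-47593466, held no CACGTG and no other CANNTG, a motif in 66.2% of all windows. The E2F motif TTCCCGCC, searched on both strands and present in 1.86% of all windows, was in none of the windows of these 3 genes. A match is a description of letters and not a binding site, and no binding was measured here.

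Myc, at chr15:61985391-61990374 on the plus strand, was called between the lines on none of the 5 days. WT replicates 3, 1, 4 and 5 had 65.2, 38.6, 43.0 and 55.8 CPM at day 0 and 26.6, 23.4, 26.3 and 21.8 CPM at day 1. They had 22.6, 25.9, 115 and 11.2 CPM at day 2, then 13.6, 21.8, 19.3 and 12.0 CPM at day 4 and 16.1, 17.0, 21.4 and 6.99 CPM at day 6. The 115 CPM is again WT day 2 replicate 4. KO replicates had 60.9, 17.4, 35.1 and 43.8 CPM at day 0 and 19.7, 18.8, 19.4 and 19.2 CPM at day 1. KO day 2 replicates 3, 1 and 5 had 16.4, 28.8 and 18.6 CPM. KO day 4 gave 18.4, 39.1, 24.5 and 20.7 CPM and KO day 6 gave 14.4, 25.7, 22.2 and 14.7 CPM. The lines overlapped on every day except day 1, when the 4 KO libraries lay just below the 4 WT libraries.

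In WT, Myc fell, with log2 differences from day 0 of -1.59 ± 0.26 at day 4 (adjusted p = 0.00335) and -1.72 ± 0.37 at day 6 (0.0015). The day 2 difference of -0.22 ± 0.74 (0.75) became -1.38 (0.00388) without WT day 2 replicate 4. In KO it fell at day 6 (-1.07 ± 0.44, 0.0439), a call lost without KO day 0 replicate 3, 4 or 5 or KO day 6 replicate 3, 4 or 5 (0.0555 to 0.205), with library totals as the only scaling (0.0531) and with no filter (0.0704). The differences between the lines were -0.40 ± 0.43, -0.33 ± 0.08, -1.11 ± 0.76, 0.53 ± 0.29 and 0.25 ± 0.38 at days 0, 1, 2, 4 and 6 (0.104 to 0.72). At day 2 the difference was 0.05 (0.951) without WT day 2 replicate 4 and -1.43 (0.0239) without WT day 2 replicate 5.

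CDK inhibitors block the kinases bound to cyclins. Of 7 listed, 5 were tested, and 3 of these were called lower in KO at days 4 and 6 and 0 higher (median difference -1.22 and -1.35, against 0.01 and 0.02 over all genes, of which 27.5% and 28.9% were called). Cdkn1a, which encodes p21, rose in WT from 237 ± 47.8 to 3799 ± 463 CPM between days 0 and 6 (4.00 ± 0.20 on the log2 scale, adjusted p = 6.22e-11). In KO it rose from 171 ± 46.1 to 1471 ± 205 CPM (3.08 ± 0.22, 8.49e-09), and it was lower in KO at day 6 (-1.44 ± 0.13, 0.000584). The smaller rise in KO did not pass as a difference between the lines (-0.91 ± 0.30, adjusted p = 0.187). Cdkn2c, which encodes the Cdk4 and Cdk6 inhibitor p18, went from 33.7 to 31.2 CPM in WT and from 57.6 to 13.0 CPM in KO. This difference in change was -2.09 ± 0.24 at day 6 (genotype by day, adjusted p = 0.000814). Cdkn2d, which encodes the related inhibitor p19, fell in both lines, with a genotype by day difference of -1.33 ± 0.32 at day 6 (0.0164). Cdkn2a and Cdkn2b, which encode the other inhibitors of this family, had 0 counts in all 39 libraries, against 724580548 counts in total, so each allows at most 3 counts of that total, by counting error only.

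Pocket proteins, the targets of the cyclin D kinases, and E2F factors were tested in full (13 of 13). At WT day 6, 4 were called higher and 8 lower than at day 0, and in KO 4 higher and 5 lower, beside 49.4% and 43.6% of all genes called. E2f1, an activating E2F, fell in WT (-2.33 ± 0.24, adjusted p = 7.48e-09) and in KO (-2.93 ± 0.31, 9.77e-10). Between the lines at day 6, 3 were called higher in KO and 1 lower (median -0.27), a share near the 28.9% of all genes called. E2f5, a repressive E2F, was higher by 1.29 ± 0.23 (0.000264), Rbl2, a pocket protein of quiescent cells, was higher by 0.82 ± 0.08 (0.00902), and E2f1 was lower (-1.08 ± 0.39, 0.00221).

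Replication genes driven by E2F fell together in both lines. All 14 of 14 were called lower than day 0 at days 2, 4 and 6 in WT and in KO, where 25.6% to 49.4% of all genes were called. Medians at day 6 were -3.66 in WT and -3.57 in KO, against -0.08 and -0.05 over all genes. Mcm3, a subunit of the replicative helicase, went from 261 to 9.92 CPM in WT and from 251 to 13.1 CPM in KO. At day 6, 2 of the 14 were called higher in KO and 1 lower, beside 28.9% of all genes. The licensing genes Mcm4 and Cdt1 were higher by 1.48 ± 0.22 (adjusted p = 0.00127) and 1.32 ± 0.27 (0.0121), and Rrm2, a ribonucleotide reductase subunit, was lower (-2.19 ± 0.20, 1.37e-05).

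In the cyclin E and A group (10 of 10 tested), 6 were called lower and 4 higher at WT day 6 than at day 0, and 7 lower and 1 higher in KO. Over all genes, 49.4% were called in WT and 43.6% in KO. Cdk2, the kinase that follows Cdk4 and Cdk6 in the cycle, went from 63.9 ± 8.40 to 107 ± 13.8 CPM in WT and from 66.8 ± 15.5 to 40.5 ± 9.74 CPM in KO between days 0 and 6. The genotype by day difference in Cdk2 was -1.50 ± 0.31 at day 6 (adjusted p = 0.000427), and 1 of the 10 genes was called by that term (9.95% of all genes). At day 6, Cdk2 was lower in KO (-1.47 ± 0.22, 8.51e-07), as was Cdc25a, a phosphatase that activates it (-0.84 ± 0.16, 0.00198).

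Among 10 genes for assembly and turnover of cyclin D complexes, 3 were called lower and 0 higher in KO at day 6, a share near the 28.9% of all genes called. Cryab, a small heat shock protein known to serve as an adaptor in cyclin D1 degradation, was lower (-1.84 ± 0.16, adjusted p = 2.8e-06), with 1027 CPM in WT and 302 CPM in KO. Usp2, a deubiquitinase of cyclin D1, was lower (-1.25 ± 0.35, 0.00806) after rising by 3.96 ± 0.25 in WT and 2.43 ± 0.30 in KO from day 0. Ddb1, an adaptor of the cullin 4 ligase, was lower (-1.09 ± 0.11, 0.00102).

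The Myc network (11 of 12 listed were tested) had 0 calls between the lines at days 0, 1 and 2 by edgeR (15.5%, 18.0% and 17.9% of all genes). It had 1 higher and 2 lower in KO at day 4 (27.5% of all genes were called), and 3 higher and 1 lower at day 6 (28.9%). Fbxw7, which encodes the ubiquitin ligase subunit that targets Myc and cyclin E, went from 15.1 to 67.8 CPM in WT and from 9.79 to 12.6 CPM in KO. It was lower in KO at day 6 (-2.50 ± 0.26, adjusted p = 8.51e-07), and its change from day 0 differed between the lines by -1.86 ± 0.37 (0.00722). The Myc antagonist Mnt was higher by 1.21 ± 0.15 (0.000854) and the Myc relative Mycl by 1.65 ± 0.42 (0.00308). Of 20 genes of ribosomes and metabolism known to respond to Myc, 14 were called lower at WT day 6 and 12 at KO day 6, and 0 higher. Medians were -0.99 and -0.73, and 49.4% and 43.6% of all genes were called. Between the lines at day 6, 2 of the 20 were called lower and 0 higher, beside 28.9% of all genes called. The 2 were Polr1b (-0.73 ± 0.23, 0.0165) and Ldha (-0.87 ± 0.22, 0.0257).

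Serum and ERK response genes (17 of 17 tested) include targets of the pathway that drives Ccnd1. At day 0, in growth medium, 4 were called lower in KO and 0 higher, with a median of -0.73, beside 15.5% of all genes called. Phlda1 was lower (-1.60 ± 0.22, adjusted p = 0.000442), as were the ERK feedback genes Spry4 (-2.41 ± 0.47, 0.00196) and Dusp4 (-1.29 ± 0.34, 0.0258). At day 6, 4 were called higher and 2 lower in KO, beside 28.9% of all genes called. Spry2, another feedback inhibitor, was higher by 1.91 ± 0.21 (5.95e-08) and Jun by 0.86 ± 0.19 (0.00454), while Etv4, an ERK-induced factor, was lower (-2.83 ± 0.89, 0.00165). The change in Spry2 from day 0 differed between the lines by 2.21 ± 0.34 (9.52e-06).

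Genes with the pattern most like each of the 6 were found by Pearson correlation over the 10 group means of log2 CPM, among 10174 protein-coding genes with a mean of at least 5 CPM. They share libraries and depth with the 6, and the values carry no test. They included Scarb1 and Bak1 for Ccnd1 (0.991 and 0.987) and were Ppp2r5b, Rhob and Rftn1 for Ccnd2 (0.995, 0.993 and 0.992). For Ccnd3 they were Patj, Kcnn3 and Cd81 (0.994, 0.99 and 0.989). For Cdk4 they were Evc, Smarcd2 and Oaf (0.999, 0.997 and 0.992). Cdk6 was closest to Tead2, Sirt5 and Klf2 (0.975, 0.975 and 0.973) and Myc to Ipo4, Wdr4 and Telo2 (0.969, 0.968 and 0.959). Among the 6 themselves the values ran from -0.88 (Ccnd3 with Cdk4) to 0.78 (Ccnd2 with Ccnd3), and Ccnd1 with Ccnd3 gave -0.10.

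Some exons are shared with genes of the opposite strand, and whether the counting used strand is not given in the sources used here. Without strand, reads from the shared bases cannot be told apart. Ccnd1 shares 1100 bases with LTO1, Ccnd3 shares 361 bases with Bysl and Cdk4 shares 641 bases with Tspan31. LTO1 was called lower in KO at days 0, 1, 2, 4 and 6. Its differences ran from -1.13 ± 0.18 at day 4 (adjusted p = 5.65e-06) to -0.56 ± 0.07 at day 0 (0.0217). From day 0 to day 6 in WT it rose by 0.79 ± 0.14 (0.000259) and Ccnd1 fell. The part of shared reads was not tested. Bysl differed by -0.36 ± 0.24 at day 4 and -0.30 ± 0.12 at day 6 and was not called on any day. Tspan31 differed by 0.28 ± 0.18 at day 4 and 0.25 ± 0.09 at day 6, neither called, and was called higher in KO at day 1 (0.49 ± 0.19, 0.0349).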

How the data were processed

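RNA of 39 libraries was measured as stranded poly(A) mRNA. The authors' deposited table holds raw read counts per gene. Per the submitters' processing notes, FastQC 0.11.9, STAR 2.7.9, featureCounts 2.0.3 and DESeq2 were used, and the builds GRCm38 and GRCh38 are named without a role. The annotation and strand setting are not given in the sources used here. Of values above 0, 64.4% were even, so mates may have been counted separately, and halved counts were an alternative. A column that matched no sample (1 column) was left out. All 29980 identifiers matched GENCODE mouse release 21 (GRCm38), which gave symbols and exon lengths.

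A single model of the 10 groups was fitted to the counts in R 4.3.3 by edgeR 4.0.16, which builds on limma 3.58.1, using TMM (0.904 to 1.05), filterByExpr and robust quasi-likelihood F-tests on 29 residual degrees of freedom. The common biological coefficient of variation was 0.326. Differences are the fitted log2 fold changes. The SE of a difference comes from the spread of the libraries' log2 CPM (prior count 2): each group's variance is divided by its size, these are added, and the root is taken. Gene lists are described by counts and medians, with up to 3 genes of smallest p named per list and comparison. The members and lists were chosen with earlier results of these data known. The fit was tested on simulated counts. DESeq2 1.42.0 was an alternative.

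Replicate numbers recur across groups. Deviations of same-numbered libraries correlated above 0.1 in every pair for KO against WT at days 0, 1, 2 and 4 (0.126 to 0.571), for WT day 1 and for KO days 1 and 2 against day 0 (0.131 to 0.554), and not elsewhere. The pairing comes from this check and not from the labels. A gene that the naming rule picked is not reported here.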

Additional observations from a re-analysis of the deposited data

Results flagged for a closer look

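Within groups of 4 libraries, a single library stood apart from the other 3 for a member in 6 of 54 groups tested. Dixon's criterion was applied to the logarithm of CPM, where chance gives about 1 in 20. In WT day 2 replicate 4, Ccnd1 had 49.0 CPM against 129 to 149 in the others, and Ccnd3 had 187 CPM against 465 to 542. Ccnd1 also stood apart in WT day 4 replicate 4, with 48.7 CPM against 83.9 to 90.9. Ccnd2 in KO day 6 replicate 1 had 10.8 CPM against 2.45 to 3.03. In KO day 1 replicate 3, Cdk4 had 828 CPM against 478 to 515 and Cdk6 had 14.3 CPM against 45.2 to 55.7. What sets these libraries apart was not tested.

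For Ccnd3, the change from day 0 differed between the lines by -1.31 on the log2 scale at day 4 and by -1.28 at day 6, both by the genotype by day term of the edgeR model.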

How the results depend on the processing

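Of 43 calls of single members, 32 were kept under each alternative, and of 59 uncalled differences 47 stayed uncalled. The number of members called on KO day 2 against day 0 was 1, and became 2 with the replicate block, with halved counts or with only the groups of the contrast, and 3 with DESeq2 or without both WT day 0 replicate 4 and KO day 1 replicate 3. It was 2 at day 1 between the lines with no filter. With only the groups of the contrast it was 2 for WT day 1, 0 for KO day 1 and 0 for genotype by day at day 4. Genotype by day gave 2 at day 4 and 3 at day 6 with the replicate block, 2 at day 6 with library totals, with DESeq2 or without both libraries named above, and 1 over all days with the block, with DESeq2 or without those libraries. Leaving out 1 library at a time gave 1 to 2 at day 0 and 2 to 3 at day 1 between the lines, 0 to 1 for KO day 1, 1 to 2 for KO day 2, 0 to 1 and 0 to 2 for genotype by day at days 4 and 6, and 0 to 1 over all days.

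The Ccnd3 to Ccnd1 ratio by longest transcript was -1.62, -0.26, 1.82, 3.06 and 3.43 in WT and -1.42, 0.37 and 1.75 at KO days 0, 1 and 2, higher by construction, since the 2 lengths of Ccnd3 differ more than those of Ccnd1. The replicate block moved the Ccnd1 difference between the lines to -1.40 at day 2 (adjusted p = 0.045) and -1.28 at day 6 (0.0356), where the numbers do not pair, and the genotype by day difference of Cdk4 to 0.81 (0.0453) and 0.93 (0.0159) at days 4 and 6 and of Ccnd2 to 1.72 (0.0469) at day 6. Besides Cdk4 on KO day 2 and over all days, where the block called Cdk4, it changed no other call of a member. A block within each day called Myc between the lines at day 4 (0.52, 0.0476) and Ccnd1 at day 2 (-1.62, 0.0165) and day 6 (-1.53, 0.00911). Leaving WT day 2 replicate 4 out of the cyclin sum was chosen after seeing the data. Depth limits Ccnd2 in KO, with 14 to 132 counts per library. It also limits single late libraries of other genes, such as Ccnd1 with as few as 84 counts at KO day 4 and 78 at KO day 6.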
